A study of Medicago sativa with 3 samples.

Results

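Starch and sucrose metabolism was followed in 3 whole-plant RNA libraries of yellow-flowered alfalfa (*Medicago sativa* ssp. *falcata*), a perennial forage legume, from a study of how plants respond to grazing by sheep. The rule for members used words of the annotation only, though it was set with earlier results of these data known. A transcript was taken where its best protein match and its best nucleotide match both named a legume of the listed genera and the protein match named sucrose, invertase, fructofuranosidase, starch, alpha-amylase, isoamylase, alpha-glucan, ADP-glucose, glucose-1-phosphate adenylyltransferase or trehalose, with transporters and galactosyl enzymes left out. This gave 164 members among the 52669 legume-matched transcripts and the 95646 assembled transcripts. The members fell into 18 enzyme classes by the words of the protein match, and their lengths ran from 202 to 4771 bases with a median of 723 bases. The transcripts are de novo assembled sequences without genome coordinates. In all, 87 members belonged to 40 clusters of similar contigs and 77 stood alone, so members of a cluster can be alleles, splice forms or pieces of 1 gene and are not independent genes.

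The groups were intolerant grazed plants (population MF200402), tolerant grazed plants (MF200401) and tolerant ungrazed plants (MF200401-1). All were ssp. *falcata*, and each group was sequenced as 1 bulk of leaf, stem and root RNA pooled over the plants of its population, so no group had a replicate and no difference below has a replicate check. According to the study's methods, the ungrazed plants grew behind a fence in another block and were cut back near grazed height at the end of grazing. Grazing and block therefore cannot be told apart. By the same methods the grazed plants were dug 1 week after the sheep were removed, so their levels are not those during grazing. The question asked of tolerant grazed against tolerant ungrazed plants is what grazing changes in the tolerant population. That of intolerant grazed against tolerant grazed plants is how the populations differ after grazing. Both comparisons use the tolerant grazed library, and a low or high value there enters both.

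Sucrose is the sugar that leaves export to roots and growing shoots. Sucrose-phosphate synthase and sucrose phosphatase make it, and sucrose synthase and invertases split it where it is used. Starch is the store, made from ADP-glucose by starch synthases and branching enzymes in plastids and broken down after phosphorylation by a dikinase through amylases, isoamylases and glucanotransferases. Trehalose-6-phosphate is a signal of sucrose status in plants. In alfalfa, regrowth after defoliation draws on reserves held in the taproot and crown, of which starch is a major one.

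The libraries held 22.3 M (intolerant grazed), 22.7 M (tolerant grazed) and 22.8 M (tolerant ungrazed) aligned fragments, M standing for mega, and levels are in FPKM, the fragments on a transcript divided by its length in kilobases and by the aligned mega-fragments. Members took 0.438% (Wilson 95% interval 0.435 to 0.440%) of the fragments of intolerant grazed plants, 0.303% (0.301 to 0.305%) of those of tolerant grazed plants and 0.615% (0.612 to 0.619%) of those of tolerant ungrazed plants. A member passed the threshold at an absolute log2 ratio of FPKM of at least 1, with 0.01 in place of an FPKM of 0. Each log2 ratio given with an interval has the exact 95% Clopper-Pearson interval of its fragments, and all intervals here cover counting error only. The 48423 transcripts that reached an FPKM of 1 in every library had a median log2 ratio of 0.09 in tolerant grazed against tolerant ungrazed plants and of 0.24 in intolerant grazed against tolerant grazed plants. The second shift is given below as a rescaled value, with 0.24 taken off, wherever it matters to a group. Stating levels in TPM instead moves every log2 ratio by 0.11 in the first comparison and by −0.09 in the second. As checks of the pooled organs, chlorophyll a/b binding proteins and the Rubisco small subunit, which mark leaf, summed to 25049 FPKM in the intolerant grazed library, 10880 FPKM in the tolerant grazed library and 10037 FPKM in the tolerant ungrazed library. Of these 22 leaf transcripts 8 were higher and 0 lower past the threshold in intolerant grazed against tolerant grazed plants, and 2 were higher and 2 lower in tolerant grazed against tolerant ungrazed plants. Laccase and cinnamyl alcohol dehydrogenase, which mark lignifying tissue, summed to 495, 570 and 610 FPKM in the same order of libraries. Of these 44 transcripts 22 were higher and 4 lower past the threshold in tolerant grazed against tolerant ungrazed plants, and 15 were higher and 8 lower in intolerant grazed against tolerant grazed plants. No legume-matched transcript carried the word leghemoglobin, the nodule marker. The part that these differences in leaf and lignifying-tissue transcripts had in any result below was not tested. In bulk RNA a smaller share of a tissue and less RNA per cell cannot be told apart.

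The members' summed level was lowest in the tolerant grazed library, and against the ungrazed library that difference lay almost wholly in members named sucrose synthase. Over all 164 members the sum was 2918 FPKM in intolerant grazed, 2000 FPKM in tolerant grazed and 4144 FPKM in tolerant ungrazed plants. Without the 44 members named sucrose synthase it was 1206, 907 and 946 FPKM in the same libraries. Members with that name made up 58.7% of the FPKM in intolerant grazed, 54.7% in tolerant grazed and 77.2% in tolerant ungrazed plants. The 29 of them whose name another annotation also gives, a sorting explained below, had 56.6%, 44.3% and 74.4%, with sums of 1650, 886 and 3084 FPKM in the same libraries. Their sum was lower by a factor of 3.48 in tolerant grazed than in tolerant ungrazed plants, against 2.93 for all 44. The log2 ratio of the sums was −1.05 in tolerant grazed against tolerant ungrazed plants and −0.06 without sucrose synthase, a value whose sign turns with TPM. In intolerant grazed against tolerant grazed plants it was 0.55 (0.31 rescaled) and 0.41 (0.18 rescaled) without sucrose synthase. Among the 98 other members with such backing the second value was 0.21, or −0.02 rescaled, so its sign turns with the scaling.

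**Figure D1:**
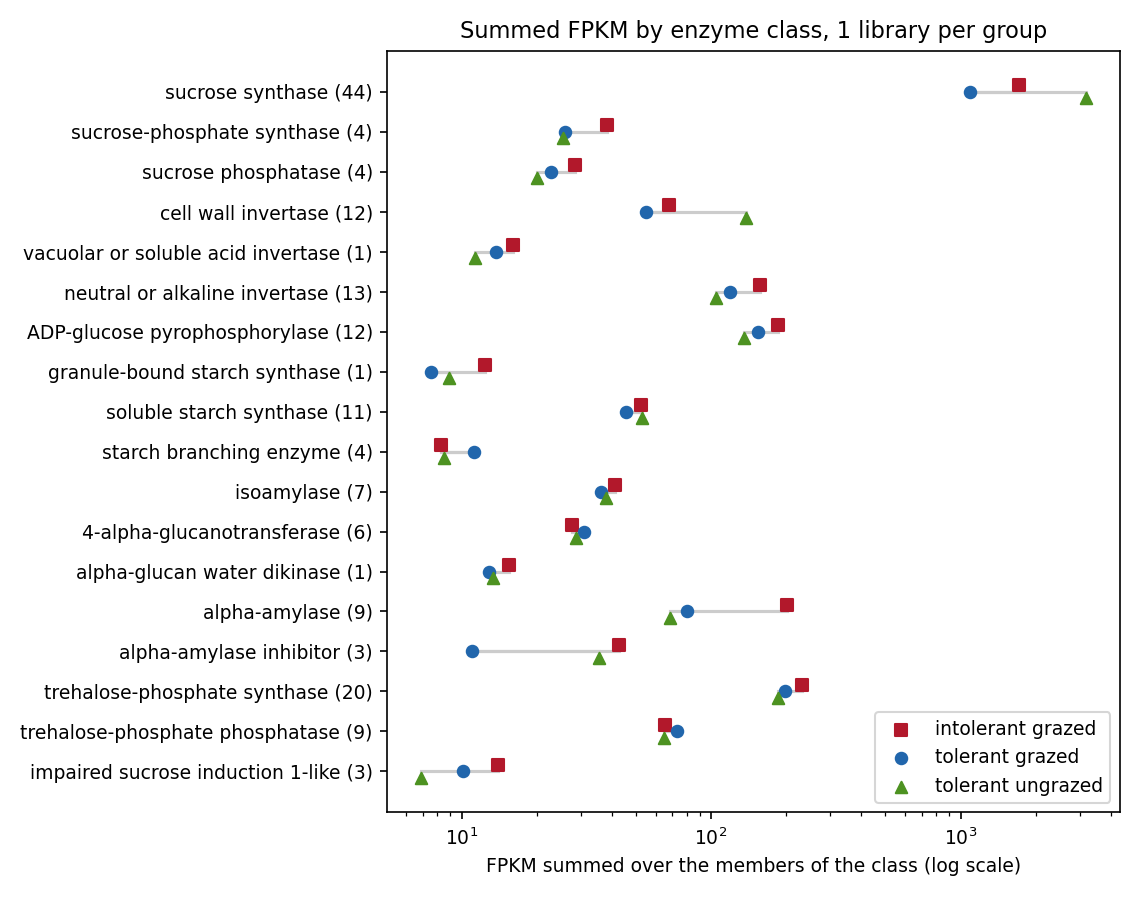
Summed FPKM of each enzyme class (log axis, number of members in brackets) in the intolerant grazed (squares), tolerant grazed (circles) and tolerant ungrazed (triangles) libraries, 1 library each. The 44 members named sucrose synthase, 15 of them without backing, stand above all other classes and spread over 1712, 1093 and 3198 FPKM, while most starch classes have 3 nearly coinciding points.

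Counted member by member, 21 of the 163 members with fragments were higher past the threshold in tolerant grazed against tolerant ungrazed plants and 28 were lower. Of all transcripts 16.9% were higher and 24.4% lower in that comparison, and of legume-matched transcripts 15.7% were higher and 8.78% lower. The members' median log2 ratio was 0.08, beside −0.02 over all transcripts and 0.12 over legume-matched ones. Of the lower members 14 were sucrose synthases, and among the 119 other members with fragments 11 were higher and 14 lower (11.8%). In intolerant grazed against tolerant grazed plants 48 of 163 members were higher and 19 lower, beside 25.5% higher and 23.6% lower among all transcripts and 22.3% higher and 13.4% lower among legume-matched transcripts. The median log2 ratio was 0.34, beside 0.19 over all transcripts and 0.28 over legume-matched ones. Without sucrose synthase 26 of 119 members were higher (21.8%) and 8 were lower (6.72%), so the share of higher members was close to that of legume-matched transcripts. Of the members past the threshold, 17 of 49 in the first comparison and 16 of 67 in the second had fewer than 20 fragments in both libraries.

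The enzyme name was checked against the other annotations of the same transcript (Swiss-Prot, COG, KEGG orthology and Gene Ontology), a sorting made after the values were seen. At least 1 of these also gave the enzyme's name for 127 members and none did for 37. In tolerant grazed against tolerant ungrazed plants 10 backed members were higher (7.87%) and 24 lower (18.9%), 14 of the lower being sucrose synthases. Of those not backed 11 were higher (30.6%) and 4 lower (11.1%). Legume-matched transcripts had 15.7% higher and 8.78% lower. In intolerant grazed against tolerant grazed plants 34 backed members were higher (26.8%) and 9 lower (7.09%). Of those not backed 14 were higher (38.9%) and 10 lower (27.8%), beside legume-matched shares of 22.3% and 13.4%. Members without backing are described separately below, because several of them had the most extreme ratios.

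Sucrose synthase cleaves sucrose with UDP to fructose and UDP-glucose and so feeds cellulose and starch synthesis. Among the enzyme classes it had the highest summed FPKM of transcripts, and this sum was lowest in the tolerant grazed library. Of its 44 members 29 were backed, and these were sorted, after their values were seen, by their Swiss-Prot match. In the first group 11 contigs of 4 clusters matched the unnumbered sucrose synthases of alfalfa, faba bean, soybean or mung bean. In the second group 3 contigs matched sucrose synthase 2 of pea. The remaining 15 matched the sucrose synthases numbered 5 or 6 of *Arabidopsis* or rice, or shared a best protein match with transcripts that did.

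All 11 contigs of the first group were lower past the threshold in tolerant grazed than in tolerant ungrazed plants. Their sum was 1269 FPKM in intolerant grazed, 769 FPKM in tolerant grazed and 2720 FPKM in tolerant ungrazed plants, so it was lower by a factor of 3.54 in tolerant grazed than in tolerant ungrazed plants (log2 ratio −1.82). The contigs' log2 ratios ran from −3.19 to −1.59. The leading member, CL1276.Contig1_All, had 400 FPKM (15747 fragments) in intolerant grazed, 307 FPKM (12258 fragments) in tolerant grazed and 1062 FPKM (42751 fragments) in tolerant ungrazed plants. Its log2 ratio was −1.79 (95% interval −1.82 to −1.76) in tolerant grazed against tolerant ungrazed plants. In intolerant grazed against tolerant grazed plants it was 0.38 (0.35 to 0.42), short of the threshold. The other contigs of that cluster behaved alike against the ungrazed library but in intolerant grazed plants stood further above the tolerant grazed level, and their best protein match is isoform 3 of pea. CL1276.Contig3_All had 179, 76.3 and 332 FPKM and CL1276.Contig2_All had 115, 31.9 and 124 FPKM in intolerant grazed, tolerant grazed and tolerant ungrazed plants.

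The clusters of this group differed in how far the intolerant grazed library stood above the tolerant grazed one. The cluster CL9778, whose 3 contigs best match the alfalfa enzyme itself, summed to 396 FPKM in intolerant grazed, 292 FPKM in tolerant grazed and 887 FPKM in tolerant ungrazed plants. Its contigs had log2 ratios of 0.46 (CL9778.Contig1_All), 0.42 (CL9778.Contig2_All) and 0.43 (CL9778.Contig3_All) in intolerant grazed against tolerant grazed plants, and of −1.60, −1.62 and −1.59 in tolerant grazed against tolerant ungrazed plants. The cluster CL8834, which best matches a partial alfalfa sucrose synthase, summed to 78.2, 17.7 and 129 FPKM in the same order. Its contig CL8834.Contig1_All had 47.6 FPKM in intolerant grazed, 9.81 FPKM in tolerant grazed and 89.3 FPKM in tolerant ungrazed plants, the lowest ratio to the ungrazed library of any backed member (log2 ratio −3.19, 95% interval −3.45 to −2.93). CL8834.Contig2_All had 30.6, 7.85 and 39.3 FPKM in these libraries. The cluster CL8249, closest to soybean and *Lotus* enzymes, summed to 99.97, 43.65 and 186 FPKM. Its contigs had log2 ratios in intolerant grazed against tolerant grazed plants of 1.42 (CL8249.Contig1_All), 1.17 (CL8249.Contig4_All) and 0.999 (CL8249.Contig2_All), the last just short of the threshold. Rescaled values fell below it for CL8249.Contig4_All (0.94) and CL1276.Contig3_All (0.997). Within the whole group 6 of 11 contigs were higher past the threshold in intolerant grazed than in tolerant grazed plants and 0 were lower, and the log2 ratio of the sums was 0.72 (0.49 rescaled).

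The pea sucrose synthase 2 type had the largest log2 ratio between the grazed populations among the 3 backed sucrose synthase types, though the cluster CL8834 of the first type stood higher (2.15). Its sum was 329 FPKM in intolerant grazed, 94.4 FPKM in tolerant grazed and 346 FPKM in tolerant ungrazed plants, so the intolerant grazed and the tolerant ungrazed libraries had similar levels. CL12582.Contig1_All, 3242 bases long, had 142 FPKM (10293 fragments) in intolerant grazed, 40.6 FPKM (2978 fragments) in tolerant grazed and 137 FPKM (10164 fragments) in tolerant ungrazed plants. CL12582.Contig2_All had 134, 39.9 and 145 FPKM and the shorter Unigene21714_All had 52.1, 13.9 and 64.2 FPKM. All 3 passed the threshold in both comparisons, with log2 ratios of −2.21 to −1.76 in tolerant grazed against tolerant ungrazed plants and of 1.75 to 1.91 in intolerant grazed against tolerant grazed plants. The log2 ratio of the sums between the grazed populations was 1.80 (1.56 rescaled), against 0.72 for the first group.

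The 15 members of the sucrose synthase 5 or 6 type were scarce, and their summed level was not lower in the tolerant grazed than in the tolerant ungrazed library. Their sum was 53.0 FPKM in intolerant grazed, 22.9 FPKM in tolerant grazed and 17.5 FPKM in tolerant ungrazed plants, from 598, 252 and 188 fragments. In tolerant grazed against tolerant ungrazed plants 4 of 15 were higher past the threshold and 0 were lower. Of these 4, 3 had fewer than 20 fragments in both libraries. Legume-matched transcripts had 15.7% higher and 8.78% lower in that comparison. Between the grazed populations 9 were higher and 1 lower in intolerant plants, beside 22.3% and 13.4% of legume-matched transcripts. Of the members past the threshold there, 4 had fewer than 20 fragments in both libraries. The log2 ratio of the sums was 1.21 (0.98 rescaled). The most abundant of them, Unigene24151_All, had 11.0 FPKM (129 fragments) in intolerant grazed, 3.94 FPKM (47 fragments) in tolerant grazed and 1.83 FPKM (22 fragments) in tolerant ungrazed plants. Its level was highest in the intolerant grazed library, with a log2 ratio of 1.48 (95% interval 0.99 to 1.99) against the tolerant grazed one.

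The other 15 members named sucrose synthase had no second annotation for that enzyme, and 12 of them shared 1 best-matching *Medicago truncatula* protein. Of these 12, 8 carried the words resistance, WRKY or ADP binding in their Swiss-Prot, Gene Ontology or nucleotide annotation. ADP binding alone does not name a resistance protein. Among the 8 were 5 with a Swiss-Prot match to the tobacco mosaic virus resistance protein N or to WRKY19, a resistance protein of *Arabidopsis* with a WRKY domain. The rest of the 12 were placed here by the shared protein match alone. All 12 are called resistance-like here, as a label only, and not counted as the enzyme. Their summed level ran opposite to those of the first and second groups of the enzyme. The sum was 54.4 FPKM in intolerant grazed, 198 FPKM in tolerant grazed and 105 FPKM in tolerant ungrazed plants, the highest level being in the tolerant grazed library. In intolerant grazed against tolerant grazed plants 9 of 12 were lower past the threshold and 2 were higher, and in tolerant grazed against tolerant ungrazed plants 5 were higher and 0 lower. Unigene5881_All had 4.27 FPKM (140 fragments) in intolerant grazed, 35.0 FPKM (1167 fragments) in tolerant grazed and 18.3 FPKM (615 fragments) in tolerant ungrazed plants. Unigene5878_All had 8.51, 34.7 and 24.7 FPKM and Unigene5880_All had 3.44, 25.3 and 11.96 FPKM in the same libraries. These levels were lower in the intolerant grazed library by log2 ratios of −3.04, −2.03 and −2.88.

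Among the remaining resistance-like transcripts, Unigene23375_All had 1.96 FPKM in intolerant grazed, 16.7 FPKM in tolerant grazed and 5.29 FPKM in tolerant ungrazed plants (log2 ratio between the grazed populations −3.09, 95% interval −3.91 to −2.36). Unigene25144_All had 3.85, 21.6 and 6.50 FPKM. Both passed the threshold upward in tolerant grazed against tolerant ungrazed plants, with log2 ratios of 1.66 and 1.73. Unigene5875_All (4.54, 18.1 and 13.9 FPKM), CL13474.Contig2_All (3.51, 15.4 and 8.33 FPKM), CL9490.Contig5_All (6.84, 14.7 and 8.02 FPKM) and CL11690.Contig2_All (3.13, 10.3 and 5.21 FPKM) were also highest in the tolerant grazed library. CL13474.Contig2_All, CL11690.Contig2_All and Unigene5881_All lay just short of the threshold against the ungrazed library (0.89, 0.99 and 0.94) and crossed it in TPM. Unigene5880_All crossed it at 1.08 and lay at 0.99 with the shift of 0.09 taken off. A further member without backing, Unigene5872_All, which matches a partial *M. truncatula* sucrose synthase, had 1.10 FPKM in intolerant grazed, 6.92 FPKM in tolerant grazed and 7.94 FPKM in tolerant ungrazed plants.

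**Figure D2:**
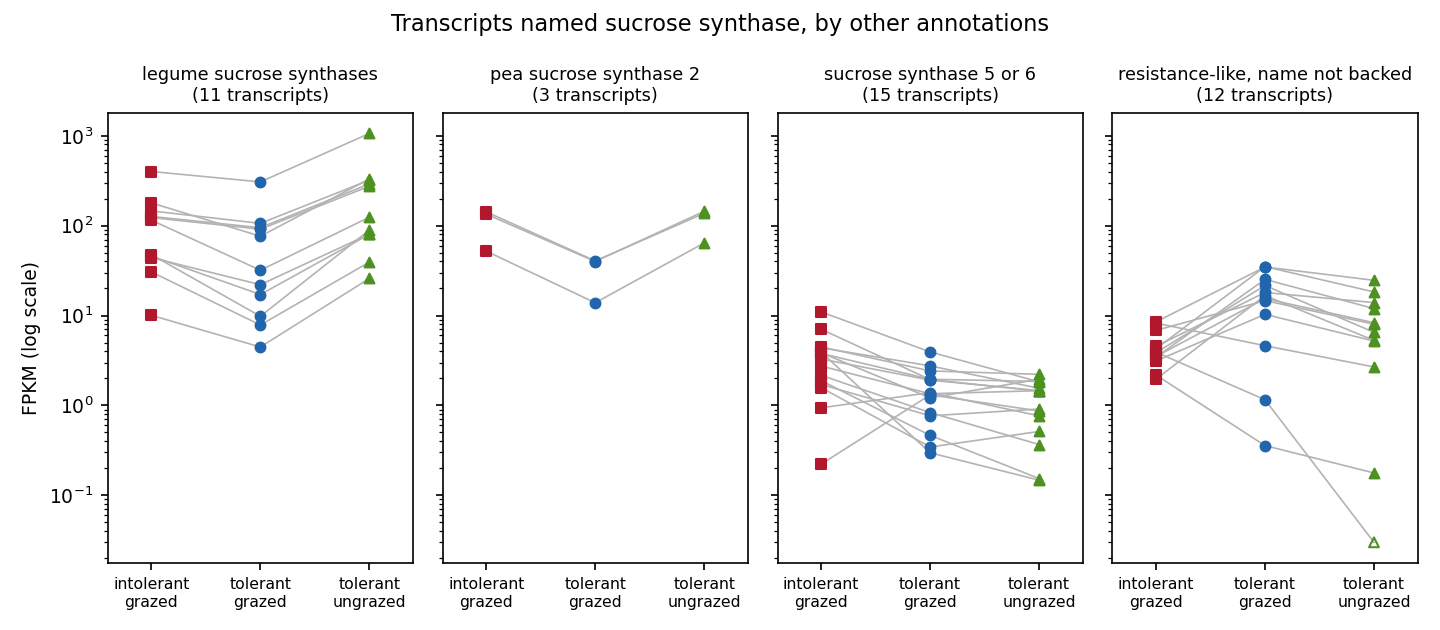
FPKM (log axis) of transcripts named sucrose synthase in the intolerant grazed, tolerant grazed and tolerant ungrazed libraries, 1 line per transcript, in 4 panels by their other annotations. The 11 and 3 transcripts of the main enzyme types dip in the tolerant grazed library, the 15 of the 5 or 6 type lie mostly below 5 FPKM, and 9 of the 12 resistance-like ones peak in it. The open symbol marks an FPKM of 0, drawn at 0.03.

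Transcripts of sucrose-making enzymes varied little. Sucrose-phosphate synthase, which joins UDP-glucose and fructose-6-phosphate, was led by Unigene3341_All with 16.9 FPKM (1335 fragments) in intolerant grazed, 19.8 FPKM (1586 fragments) in tolerant grazed and 16.9 FPKM (1367 fragments) in tolerant ungrazed plants. The log2 ratios were −0.23 (95% interval −0.33 to −0.12) in intolerant grazed against tolerant grazed plants and 0.23 (0.12 to 0.33) in tolerant grazed against tolerant ungrazed plants. The 2 backed members of the class summed to 26.6, 25.9 and 24.2 FPKM. A member without backing, Unigene35604_All, named here after its values were seen, had 11.8 FPKM (212 fragments) in intolerant grazed, 0.055 FPKM (1 fragment) in tolerant grazed and 0 fragments in tolerant ungrazed plants. Its log2 ratio between the grazed populations was 7.75 (5.26 to 13.06), but its KEGG annotation names a ubiquitin-conjugating enzyme. Sucrose phosphatase, which removes the phosphate, had 4 members, none past the threshold in tolerant grazed against tolerant ungrazed plants and 1 higher in intolerant grazed against tolerant grazed plants. Its leading member CL13055.Contig1_All had 11.4, 9.89 and 7.84 FPKM in intolerant grazed, tolerant grazed and tolerant ungrazed plants.

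Invertases, which hydrolyse sucrose to glucose and fructose, are sorted by the place where they act. The cell wall class was lower in the tolerant grazed library, with a sum of 68.1 FPKM in intolerant grazed, 54.8 FPKM in tolerant grazed and 138 FPKM in tolerant ungrazed plants (log2 ratio −1.33 in tolerant grazed against tolerant ungrazed plants). In that comparison 3 of 12 members were lower past the threshold and 0 higher, but the class sum rested on a single contig. CL1931.Contig1_All had 36.4 FPKM (1663 fragments) in intolerant grazed, 20.6 FPKM (956 fragments) in tolerant grazed and 97.6 FPKM (4564 fragments) in tolerant ungrazed plants. Its log2 ratio was −2.24 (95% interval −2.35 to −2.14) in tolerant grazed against tolerant ungrazed plants and 0.82 (0.71 to 0.94) in intolerant grazed against tolerant grazed plants. The other 11 members summed to 31.7, 34.2 and 40.5 FPKM, with a log2 ratio of −0.24 in the first comparison. Among them CL538.Contig1_All had 2.84, 5.83 and 7.19 FPKM and was lower past the threshold in intolerant grazed than in tolerant grazed plants (log2 ratio −1.04, 95% interval −1.47 to −0.61).

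The vacuolar acid invertase, which sets hexose levels in vacuoles, was a single member, Unigene23827_All, with 16.1 FPKM in intolerant grazed, 13.8 FPKM in tolerant grazed and 11.4 FPKM in tolerant ungrazed plants. Neutral or alkaline invertases, which act in the cytosol and organelles, had 13 members and a sum of 157, 119 and 104 FPKM in the same order. Past the threshold 4 of them (30.8%) were higher and 0 lower in intolerant grazed against tolerant grazed plants. Beside that, 22.3% of legume-matched and 25.5% of all transcripts were higher. The log2 ratios ran from 0.10 to 3.55, or from −0.14 to 3.31 rescaled. The 6 backed members held 2 of the 4. The leading member Unigene18604_All had 60.6, 56.5 and 42.8 FPKM. Unigene9205_All had 7.25 FPKM (200 fragments) in intolerant grazed, 5.996 FPKM (168 fragments) in tolerant grazed and 2.48 FPKM (70 fragments) in tolerant ungrazed plants. It was the member of this class that was higher in tolerant grazed against tolerant ungrazed plants (log2 ratio 1.27, 95% interval 0.86 to 1.70). A member without backing, Unigene13599_All, named after its values were seen, was lower there, with 3.89, 2.75 and 7.24 FPKM in the 3 libraries (log2 ratio −1.40, −2.16 to −0.68).

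**Figure D3:**
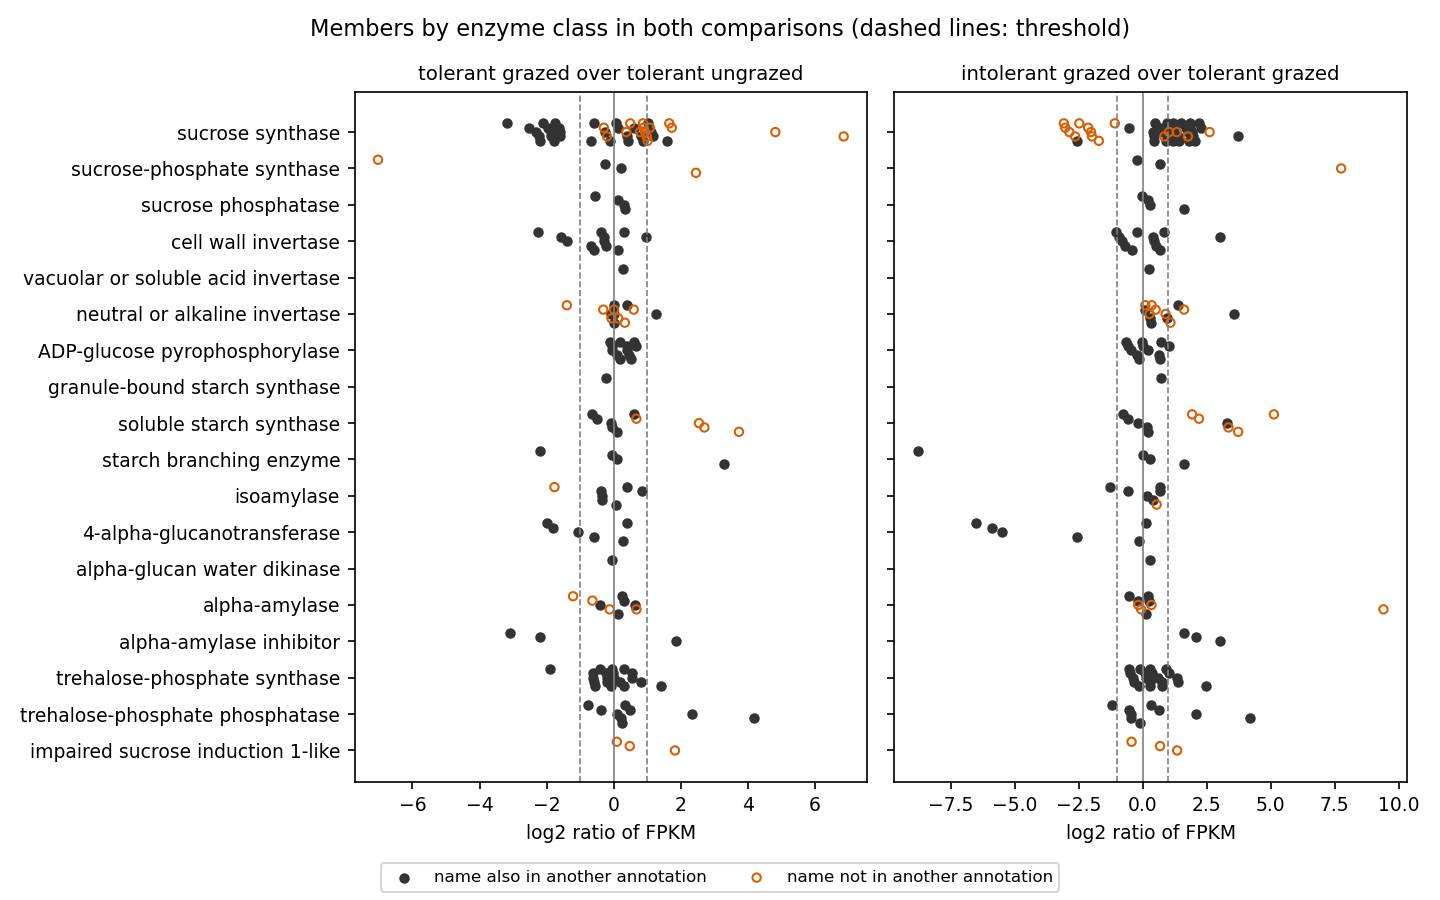
Log2 ratio of FPKM of every member with fragments, by enzyme class, in tolerant grazed over tolerant ungrazed plants (left) and intolerant grazed over tolerant grazed plants (right), with dashed lines at the threshold of 1. Filled points are the 127 members whose name another annotation also gives and open points those without, which hold the highest values of 6.85 (left) and 9.40 (right).

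The abundant transcripts of starch synthesis enzymes stayed short of the threshold in tolerant grazed against tolerant ungrazed plants. ADP-glucose pyrophosphorylase, which makes the substrate of starch synthesis and is its main point of control, had 12 members, all backed, and 0 of them passed the threshold in that comparison. Their log2 ratios ran from −0.11 to 0.66. The class summed to 186 FPKM in intolerant grazed, 154 FPKM in tolerant grazed and 135 FPKM in tolerant ungrazed plants. The leading member Unigene4374_All had 81.8 FPKM (3632 fragments) in intolerant grazed, 50.004 FPKM (2255 fragments) in tolerant grazed and 51.8 FPKM (2352 fragments) in tolerant ungrazed plants. Its log2 ratio in intolerant grazed against tolerant grazed plants was 0.71 (95% interval 0.63 to 0.79), and the other 11 members together had 104.1, 104.1 and 83.2 FPKM. The short contig CL5848.Contig1_All (216 bases) had 15.4, 7.56 and 7.91 FPKM and a log2 ratio of 1.02 (0.43 to 1.63), which came to 0.79 rescaled.

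Granule-bound starch synthase, which makes amylose, was the single member Unigene3483_All with 12.4 FPKM in intolerant grazed, 7.56 FPKM in tolerant grazed and 8.89 FPKM in tolerant ungrazed plants. Soluble starch synthases, which extend amylopectin, were led by the starch synthase II transcript Unigene6302_All with 14.2, 21.2 and 22.3 FPKM in these libraries. It was lower in intolerant grazed than in tolerant grazed plants by less than the threshold (log2 ratio −0.58, 95% interval −0.70 to −0.46). The 6 backed members summed to 45.5, 44.4 and 52.1 FPKM. The other 5 shared 1 best-matching protein and had no more than 71 fragments in any library. All 5 were higher past the threshold in intolerant grazed than in tolerant grazed plants, and the Swiss-Prot matches among them name a metal-nicotianamine transporter.

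Starch branching enzyme, which adds the branches of amylopectin, was thinly covered, with 123, 137 and 120 fragments over its 4 members in intolerant grazed, tolerant grazed and tolerant ungrazed plants. Unigene649_All had 3.39, 3.34 and 3.09 FPKM. The 287-base CL7627.Contig1_All, named after its values were seen, had 0 fragments in intolerant grazed, 29 in tolerant grazed and 3 in tolerant ungrazed plants. Against the floor of 3 fragments it was at least 9.51-fold lower in intolerant grazed than in tolerant grazed plants, and its log2 ratio in tolerant grazed against tolerant ungrazed plants was 3.28 (95% interval 1.59 to 5.64).

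Among the members, the leading transcript of each class listed here under starch breakdown also stayed short of the threshold in both comparisons. Alpha-glucan water dikinase, which phosphorylates starch and opens the granule to attack, was the single member Unigene17718_All with 15.4 FPKM (1641 fragments) in intolerant grazed, 12.8 FPKM (1385 fragments) in tolerant grazed and 13.3 FPKM (1449 fragments) in tolerant ungrazed plants. Isoamylase, a debranching enzyme, was led by CL7006.Contig2_All of the isoform 3 type with 10.3, 7.83 and 10.3 FPKM. The 6 backed isoamylases include Swiss-Prot matches to isoamylases 1, 2 and 3 of *Arabidopsis*. They are grouped here by name, and which of them act in starch synthesis or in breakdown was not tested. These 6 summed to 39.8, 35.2 and 34.5 FPKM. One of them, Unigene8330_All, named after its values were seen, was lower past the threshold in intolerant grazed than in tolerant grazed plants, with 9, 22 and 28 fragments in the 3 libraries (log2 ratio −1.27, 95% interval −2.57 to −0.09). The isoamylase without backing, Unigene14159_All, was lower in tolerant grazed than in tolerant ungrazed plants, with 10, 7 and 24 fragments (log2 ratio −1.77, −3.23 to −0.51). The 4-alpha-glucanotransferase Unigene8816_All, which handles the maltose or short glucans released, had 17.4, 19.3 and 16.03 FPKM. A cluster of 4 short contigs with the same enzyme name, CL3804, singled out after its values were seen, had 1 fragment in intolerant grazed, 33 in tolerant grazed and 82 in tolerant ungrazed plants.

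Alpha-amylase, which cuts starch internally, had 5 backed members with 62.1 FPKM in intolerant grazed, 69.1 FPKM in tolerant grazed and 58.2 FPKM in tolerant ungrazed plants. Unigene12875_All led them with 48.2, 55.5 and 46.4 FPKM. None of the 5 passed the threshold in either comparison. The backing of Unigene23558_All (6.92, 6.39 and 5.82 FPKM) is mixed, since its Swiss-Prot match is a chloroplast movement protein and its KEGG match a ubiquitin ligase. The class as named by its protein matches summed instead to 202, 79.8 and 68.2 FPKM, because of 1 transcript. Unigene37426_All had 129 FPKM (2001 fragments) in intolerant grazed, 0.19 FPKM (3 fragments) in tolerant grazed and 0.44 FPKM (7 fragments) in tolerant ungrazed plants, a log2 ratio of 9.40 (95% interval 7.86 to 11.68) between the grazed populations. Its best nucleotide match is an alfalfa peroxidase gene and no other annotation names an amylase. A further contig without backing, CL2260.Contig1_All, matches phosphoglucan, water dikinase in Swiss-Prot and KEGG.

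Inhibitors named alpha-amylase/subtilisin inhibitor, proteins that block amylases and proteases, were 3 contigs of 1 cluster and passed the threshold in both comparisons, in differing directions. Their sum was 42.8 FPKM in intolerant grazed, 11.0 FPKM in tolerant grazed and 35.5 FPKM in tolerant ungrazed plants. CL4815.Contig4_All had 17.7 FPKM (514 fragments) in intolerant grazed, 5.82 FPKM (172 fragments) in tolerant grazed and 26.8 FPKM (797 fragments) in tolerant ungrazed plants. CL4815.Contig2_All followed it with 7.03, 0.87 and 7.52 FPKM. CL4815.Contig1_All had 18.1 FPKM (250 fragments) in intolerant grazed, 4.34 FPKM (61 fragments) in tolerant grazed and 1.20 FPKM (17 fragments) in tolerant ungrazed plants, so it was lowest in the ungrazed library. The 3 log2 ratios in tolerant grazed against tolerant ungrazed plants were −2.20, −3.10 and 1.85, while all 3 were higher in intolerant grazed against tolerant grazed plants, at 1.60, 3.01 and 2.06.

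Trehalose-6-phosphate synthases and phosphatases are named after the making and removal of the sucrose signal. They had 29 members, all backed by name, and whether each has that activity was not tested. The class sums differed by less than the threshold while single members passed it. The 20 synthase members summed to 230 FPKM in intolerant grazed, 198 FPKM in tolerant grazed and 185 FPKM in tolerant ungrazed plants. The leading one, CL8177.Contig2_All, whose protein match is named synthase 10-like, had 31.6, 35.5 and 34.9 FPKM. In tolerant grazed against tolerant ungrazed plants 1 synthase was higher and 1 lower past the threshold, and in intolerant grazed against tolerant grazed plants 4 were higher and 0 lower. The 4 are 20% of the synthases, close to the 22.3% higher among legume-matched transcripts and below the 25.5% among all transcripts. The higher one in the first comparison was Unigene12079_All, with 11.4 FPKM (313 fragments) in intolerant grazed, 9.44 FPKM (263 fragments) in tolerant grazed and 3.56 FPKM (100 fragments) in tolerant ungrazed plants (log2 ratio 1.41, 95% interval 1.07 to 1.75). The cluster CL7137 held 3 of the 4 higher in the second comparison. CL7137.Contig6_All had 11.1 FPKM (733 fragments) in intolerant grazed, 4.45 FPKM (298 fragments) in tolerant grazed and 6.86 FPKM (463 fragments) in tolerant ungrazed plants (log2 ratio between the grazed populations 1.32, 1.13 to 1.52). CL7137.Contig7_All had a log2 ratio of 1.36 and CL7137.Contig1_All one of 1.01 (0.77 rescaled). The whole cluster of 7 contigs summed to 65.6, 32.7 and 42.3 FPKM.

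The 9 phosphatase members summed to 65.1 FPKM in intolerant grazed, 72.8 FPKM in tolerant grazed and 65.0 FPKM in tolerant ungrazed plants. CL9607.Contig2_All led them with 13.5, 19.8 and 14.2 FPKM. Unigene19255_All, which matches the alfalfa trehalose-6-phosphate phosphatase, had 4.93 FPKM (63 fragments) in intolerant grazed, 11.5 FPKM (149 fragments) in tolerant grazed and 9.18 FPKM (120 fragments) in tolerant ungrazed plants. It was the phosphatase that was lower past the threshold in intolerant grazed against tolerant grazed plants (log2 ratio −1.22, 95% interval −1.67 to −0.78), and 2 scarce ones were higher.

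**Figure D4:**
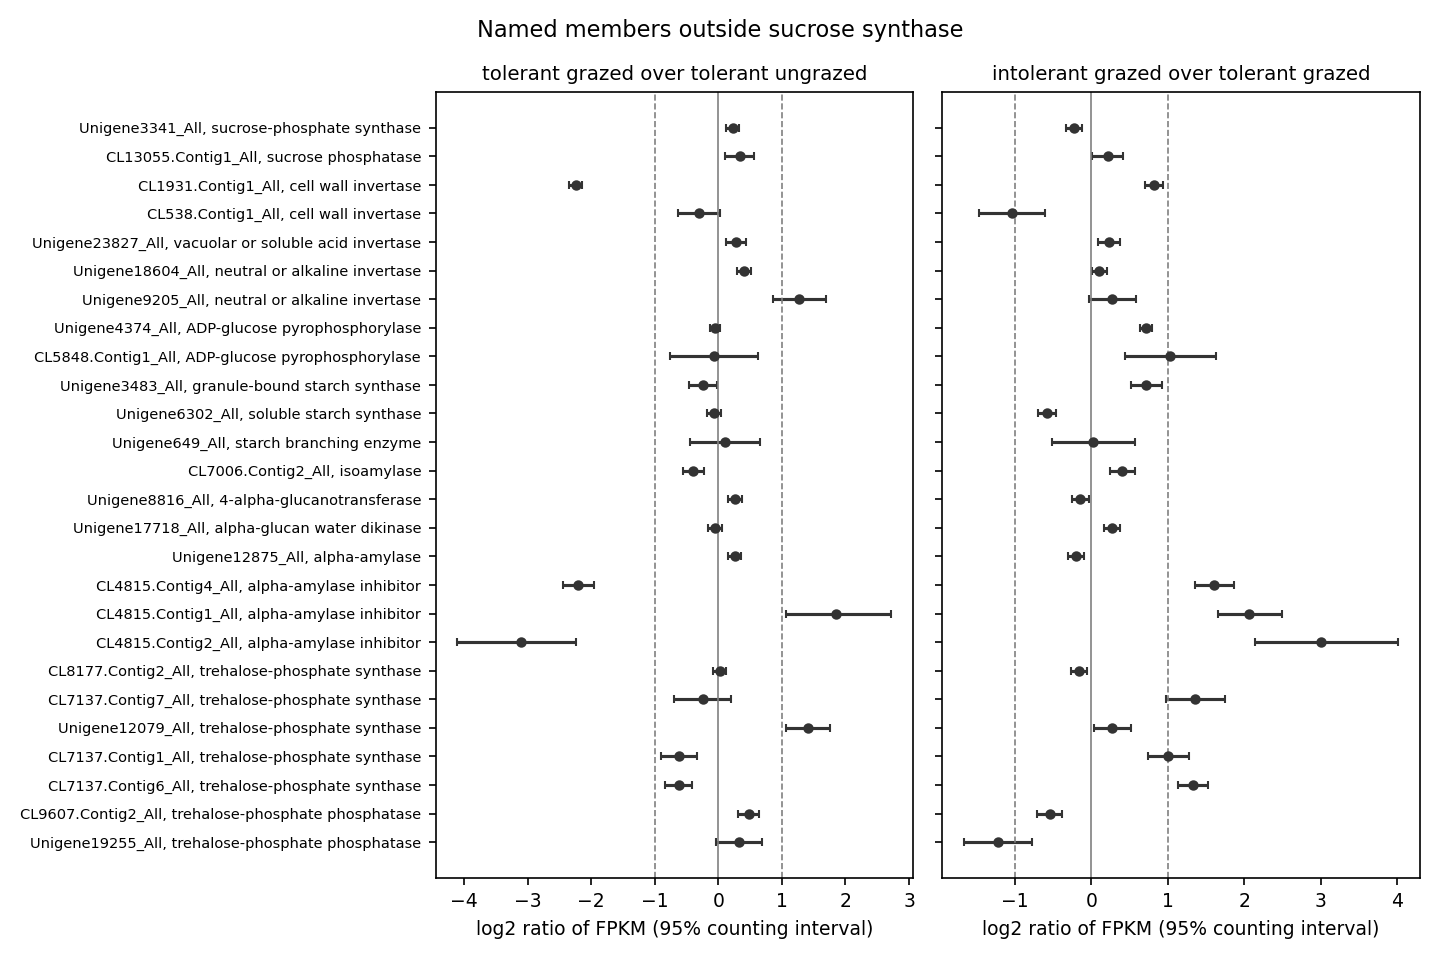
Log2 ratios of FPKM of the 26 named members outside sucrose synthase whose enzyme name is backed, with exact 95% counting intervals as bars, in tolerant grazed over tolerant ungrazed plants (left) and intolerant grazed over tolerant grazed plants (right). Most points lie between the dashed lines at −1 and 1, with the cell wall invertase CL1931.Contig1_All at −2.24 (left) and the 3 amylase inhibitor contigs outside the lines in both panels.

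The last class, impaired sucrose induction 1-like, is named after an *Arabidopsis* gene of sugar response and had 3 contigs of 1 cluster, all without backing. CL871.Contig1_All had 3.49 FPKM in intolerant grazed, 4.74 FPKM in tolerant grazed and 4.44 FPKM in tolerant ungrazed plants. CL871.Contig2_All, named after its values were seen, had 5.31, 3.33 and 0.94 FPKM, with a log2 ratio of 1.83 (95% interval 1.17 to 2.53) in tolerant grazed against tolerant ungrazed plants.

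Enzymes next to the pathway were also counted in the legume-matched transcripts: hexokinase, fructokinase, phosphoglucomutase, glucose-6-phosphate isomerase, UDP-glucose pyrophosphorylase, beta-amylase, and pullulanase or limit dextrinase. Of these 99 transcripts 8 were higher and 5 lower past the threshold among 96 with fragments in tolerant grazed against tolerant ungrazed plants. Between the grazed populations 22 were higher and 14 lower in intolerant plants. Legume-matched transcripts as a whole had 15.7% higher and 8.78% lower in the first comparison and 22.3% higher and 13.4% lower in the second, so the counts of the second lie near that background. Fructokinase, which phosphorylates the fructose that sucrose synthase and invertase release, had 51 transcripts with 449 FPKM in intolerant grazed, 343 FPKM in tolerant grazed and 512 FPKM in tolerant ungrazed plants. Of these, 11 were higher and 13 lower between the grazed populations, and 5 were higher and 4 lower in tolerant grazed against tolerant ungrazed plants. Beta-amylase, which releases maltose from starch and accumulates in alfalfa taproots, had 22 transcripts with 452, 432 and 490 FPKM. Of these 22, 6 were higher and 1 lower in intolerant grazed against tolerant grazed plants. In tolerant grazed against tolerant ungrazed plants 2 of them were higher and 0 lower. Hexokinase had 12 transcripts with 84.4, 69.1 and 60.8 FPKM, of which 3 were higher in intolerant grazed against tolerant grazed plants.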

How the data were processed

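Whole-plant RNA bulks were sequenced as 3 libraries, 1 per group, and groups follow the labels. The authors assembled the reads with Trinity and TGICL, aligned them back with SOAP, and annotated transcripts with BLAST searches and Blast2GO. Program versions are not given in the sources used here. The authors deposited the counts of fragments uniquely aligned to each transcript, not normalized, and FPKM values made from them. FPKM recomputed from the fragments, transcript lengths and column totals matched the deposited values within 5e-05. Unique alignment divides fragments among similar contigs, so class sums are given beside single contigs. All per-sample columns were used (0 left out).

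Members were selected by annotation words, sorted into classes by the first matching words, and counted at an absolute log2 FPKM ratio of at least 1. With 1 library per group there was no test across replicates. The text names the most abundant member of each class, each member past the threshold with a mean of at least 5 FPKM and at least 50 fragments in a library, and members of at least 5 FPKM in classes of 3 or fewer. Members and lists were chosen with earlier results of these data known. The floor was 3 fragments. Ratios and intervals were tested on simulated counts. No transcript sequences were used here. Alternatives covered added FPKM, depth, length, threshold, scaling and cluster sums, and a Poisson test of fragments with Benjamini-Hochberg adjustment. Restrictions to members with a second annotation were added after the data were seen. Python 3.11.15, numpy, pandas, scipy and matplotlib were used.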

Additional observations from a re-analysis of the deposited data

How the results depend on the processing

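No paired analysis was possible because each group was a single library, and for the same reason no library could be left out. In tolerant grazed against tolerant ungrazed plants, the 21 higher members came to 10 with 1 added to every FPKM, 10 with at least 20 fragments in a library, 11 among transcripts of at least 500 bases, 9 with a threshold of 2 on the log2 scale, 9 with the Poisson test (adjusted p of at most 0.001), 12 with an interval without 0, 10 among backed members and 5 among backed members with at least 20 fragments. The 28 lower members came to 11 at a log2 ratio of at least 2 and to 16 with contigs summed per cluster, and stayed between 19 and 28 under the other settings. In intolerant grazed against tolerant grazed plants, the 48 higher members came to 30 at 500 bases, 19 at a log2 ratio of at least 2, 30 with the Poisson test and 28 among backed members with at least 20 fragments, and the 19 lower ones to 11 with 1 added, 12 at 500 bases, 9 among backed members and 4 among backed members with at least 20 fragments. Fewer members were tested under the depth, length and backing settings.

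The log2 ratio of class sums changed its side of the threshold without the most abundant member for the amylase inhibitors (−0.74), cell wall invertase (−0.24) and impaired sucrose induction (1.16) in tolerant grazed against tolerant ungrazed plants, and for sucrose-phosphate synthase (1.81) in intolerant grazed against tolerant grazed plants. The alpha-amylase sum, 1.34 in intolerant grazed against tolerant grazed plants, was 0.87 from fragments and reversed to −0.15 among backed members, which leave out Unigene37426_All. The sucrose synthase sums kept direction and side under every setting run. Near the threshold, 5 named contigs fell below it with rescaling or in TPM and 3 crossed it in TPM. Class sums within 0.24 of 0 between the grazed populations (isoamylase, soluble starch synthase, trehalose-phosphate synthase and vacuolar invertase) turn from higher to lower with rescaling, so no direction is given for them. Depth limits transcripts with few fragments, where 3 fragments equal 0.135 FPKM (intolerant grazed), 0.132 FPKM (tolerant grazed) and 0.131 FPKM (tolerant ungrazed) at 1 kb.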

Other observations

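The same enzyme words also matched 37 transcripts whose protein or nucleotide match was not to the listed legumes, and these were not counted as members. They summed to 168 FPKM in intolerant grazed, 172 FPKM in tolerant grazed and 169 FPKM in tolerant ungrazed plants. Of these 37 transcripts, 12 had 0 fragments in the intolerant grazed library and 8 had 0 in the tolerant grazed library. In the tolerant ungrazed library 0 of them had none. Fragments in at least 1 grazed library were found for 30 of the 37. The same held for 86525 of the 95646 assembled transcripts and for 52588 of the 52669 legume-matched ones. Absence from both grazed libraries thus lay mostly outside the legume-matched set and was not particular to these 37 transcripts. Alpha-glucan phosphorylase, which releases glucose-1-phosphate from starch and had no member by the rule, had 8 of these transcripts, with 58.4 FPKM in intolerant grazed, 58.3 FPKM in tolerant grazed and 51.7 FPKM in tolerant ungrazed plants. Starch branching enzyme, thinly covered among the members, had 6 of them, with 28.7, 28.5 and 31.8 FPKM in the same libraries.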
